A study of Mus musculus with 12 samples.

Results

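Glucose transport and glycolysis were followed in 10 genes of LT-HSCs, the long-term blood-forming stem cells of mouse bone marrow: the glucose transporters Slc2a1 and Slc2a3, the hexokinases Hk1 and Hk2, Pfkp, Aldoa, Pgk1, Pkm, Ldha and Pdk1. They were chosen by gene symbol among the 28999 genes of the deposited table. Aldoa stands there as 2 gene models, so the 10 symbols gave 11 rows. The 11 rows all passed the filter on low counts, which kept 16319 genes.

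The study compared 4 groups of 3 libraries each, named in the labels as Trim47-/- LT-HSCs after 5-FU, wild-type (WT) LT-HSCs after 5-FU, untreated Trim47-/- LT-HSCs and untreated WT LT-HSCs. 5-FU is 5-fluorouracil, a drug that kills cycling cells, and the series title gives 10 days for it. Trim47 is a TRIM-family gene, many of whose proteins attach ubiquitin to targets. The design sets the genotypes against each other with and without the drug. The sources used here do not give the strain, age, sorting gate, animals per library or deleted part of Trim47.

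Total counts ran from 13919649 to 13953510 in Trim47-/- libraries after 5-FU and from 15111811 to 15151589 in WT libraries after 5-FU. They ran from 20661120 to 20703198 in untreated Trim47-/- libraries and from 14828152 to 14885673 in untreated WT libraries. Within a group the totals spanned at most 0.387% of their mean. The labels do not tie the 3 libraries of a group to separate animals, so all p-values here rest on library-to-library spread that may be technical. Trim47 itself averaged 11.3 ± 1.09 CPM (counts scaled to library size with TMM factors) in Trim47-/- libraries after 5-FU and 35.4 ± 2.5 CPM in WT libraries after 5-FU (SD, n = 3 each), and it passed the test there (log2 change -1.64, edgeR adjusted p 5.50e-07). In untreated libraries it averaged 19.7 ± 3.63 CPM in Trim47-/- and 24.4 ± 0.531 CPM in WT, and did not pass (log2 change -0.31, edgeR adjusted p 0.0632). The untreated knockout libraries therefore carry that genotype by their label.

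Cells take up glucose through facilitative transporters of the Slc2a family, and hexokinases trap it as glucose phosphate. Phosphofructokinase makes the committed step of glycolysis, aldolase splits the sugar, phosphoglycerate kinase and pyruvate kinase yield ATP, and lactate dehydrogenase turns pyruvate into lactate. Pyruvate dehydrogenase kinases such as Pdk1 switch off the enzyme that sends pyruvate into mitochondria. LT-HSCs at rest are known for relying on glycolysis, and the hypoxia-inducible factor HIF is known to raise many of these genes by binding the core letters ACGTG or GCGTG.

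A promoter window with a HIF core is shown for Slc2a1, Pfkp, Ldha and Pdk1, 4 of the 6 members that passed in both genotype comparisons. Pdk1 had signs opposite to the others. Slc2a3 and Hk1 also passed in both. Of these, Slc2a3 was not matched in the promoter table, and Hk1 had one window with 2 ACGTG and 3 GCGTG and another with neither. Hk1 too had signs opposite to Slc2a1, Pfkp and Ldha, and it is not printed because the number of printed windows was limited to 4. Ldha and Pdk1 each had a second window, described after the sequences. The sequences are the 250 bases before and 50 after a RefSeq transcript start on GRCm38.p6, written along the gene's strand. Capitals mark ACGTG or GCGTG, read on both strands, so CACGT and CACGC are the same cores on the other strand.
Slc2a1, chr4:119108495-119108794, plus strand: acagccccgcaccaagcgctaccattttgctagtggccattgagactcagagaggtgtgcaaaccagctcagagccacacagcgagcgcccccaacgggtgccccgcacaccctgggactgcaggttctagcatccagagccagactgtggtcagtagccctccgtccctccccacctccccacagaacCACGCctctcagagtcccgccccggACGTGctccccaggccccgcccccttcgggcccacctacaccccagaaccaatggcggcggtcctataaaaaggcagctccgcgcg
Pfkp, chr13:6648722-6649021, minus strand: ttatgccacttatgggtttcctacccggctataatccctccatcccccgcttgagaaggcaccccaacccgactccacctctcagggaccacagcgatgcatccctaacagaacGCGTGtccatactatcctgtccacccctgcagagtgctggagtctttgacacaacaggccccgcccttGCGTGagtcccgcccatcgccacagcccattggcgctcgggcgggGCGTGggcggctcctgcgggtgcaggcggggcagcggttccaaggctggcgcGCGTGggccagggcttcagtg
Ldha, chr7:46845554-46845853, plus strand: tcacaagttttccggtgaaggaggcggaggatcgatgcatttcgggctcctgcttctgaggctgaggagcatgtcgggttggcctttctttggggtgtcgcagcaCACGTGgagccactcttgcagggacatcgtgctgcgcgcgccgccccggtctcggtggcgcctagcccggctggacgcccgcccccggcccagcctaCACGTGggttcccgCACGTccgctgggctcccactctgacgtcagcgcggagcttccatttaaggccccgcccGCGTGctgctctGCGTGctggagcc
Pdk1, chr2:71872974-71873273, plus strand: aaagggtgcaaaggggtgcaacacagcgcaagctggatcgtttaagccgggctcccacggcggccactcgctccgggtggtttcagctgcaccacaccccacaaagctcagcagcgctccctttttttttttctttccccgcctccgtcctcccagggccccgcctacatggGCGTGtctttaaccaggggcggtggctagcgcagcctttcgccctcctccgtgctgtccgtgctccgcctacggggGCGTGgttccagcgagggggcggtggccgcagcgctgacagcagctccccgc

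In the Slc2a1 promoter, ACGTG began 36 bases and the other core 61 bases before the start. The Pfkp promoter held 4 GCGTG and no ACGTG. The Ldha window shown held 5 ACGTG, 4 of which lay as overlapping pairs in 2 copies of CACGTG, the E-box bound by Myc and related factors, and 2 GCGTG. The other Ldha window, chr7:46846832-46847131, held 2 GCGTG and neither ACGTG nor CACGTG. The Pdk1 window shown held 2 GCGTG, the nearer beginning 2 bases before the start. The other Pdk1 window, chr2:71874654-71874953, held none of the 3 motifs. RefSeq gave 15 promoters for 9 of the 10 symbols, and 11 of the 15, or 73.3%, held ACGTG or GCGTG, against 43.8% of 32851 promoters in all. ACGTG was in 8 of the 15 and in 19.6% of all promoters, GCGTG in 6 of the 15 and in 32.4%, and CACGTG in 1 of the 15 and in 7.2%. Some of these promoters belong to the same gene and overlap, and these shares were not tested. A match is a run of letters, not a measured binding site. The first 15 transcribed bases of the Ldha window shown lie outside GENCODE transcripts, and those of the other Ldha window lie inside one.

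After 5-FU, Trim47-/- LT-HSCs held more mRNA of Slc2a1, Pfkp, Pgk1, Pkm and Ldha and less of Slc2a3, Hk1 and Pdk1 than WT LT-HSCs after 5-FU. That is 5 rows higher, 3 lower and 3 not called of 11, where 27.2% of all tested genes were higher and 27.6% lower, or 4434 against 4499 genes. With libraries scaled by their totals alone that split was 3486 against 5361. In untreated cells, libraries labelled Trim47-/- held less Slc2a1, Hk2, Pfkp and Ldha and more Slc2a3, Hk1, Pdk1 and the upstream Aldoa model than WT libraries. That is 4 rows higher, 4 lower and 3 not called, where 17.6% of all genes were higher and 15.4% lower. The median log2 change of the 11 rows was 0.09 after 5-FU and 0.04 untreated, beside 0 and 0.03 for all genes tested. With the low-count upstream Aldoa model left out, the median of the 10 symbols was 0.244 after 5-FU and 0.004 untreated. Neither comparison moved the members as one block. In these bulk libraries, fewer cells of a type and less RNA per cell cannot be told apart, and neutrophil and monocyte markers were higher and LT-HSC markers lower in Trim47-/- libraries after 5-FU, with values given at the end.

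The 6 members that passed in both states, Slc2a1, Slc2a3, Hk1, Pfkp, Ldha and Pdk1, had opposite signs in the 2 states. The test of the difference itself, the 5-FU response in Trim47-/- cells minus that in WT cells, called 6 rows higher, 4 lower and 1 not, where 26.4% of all genes were higher and 28.5% lower. The members' median of this difference was 0.36 in log2 and that of all genes -0.03. A difference in response was thus called for many genes outside glycolysis too.

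**Figure D1:**
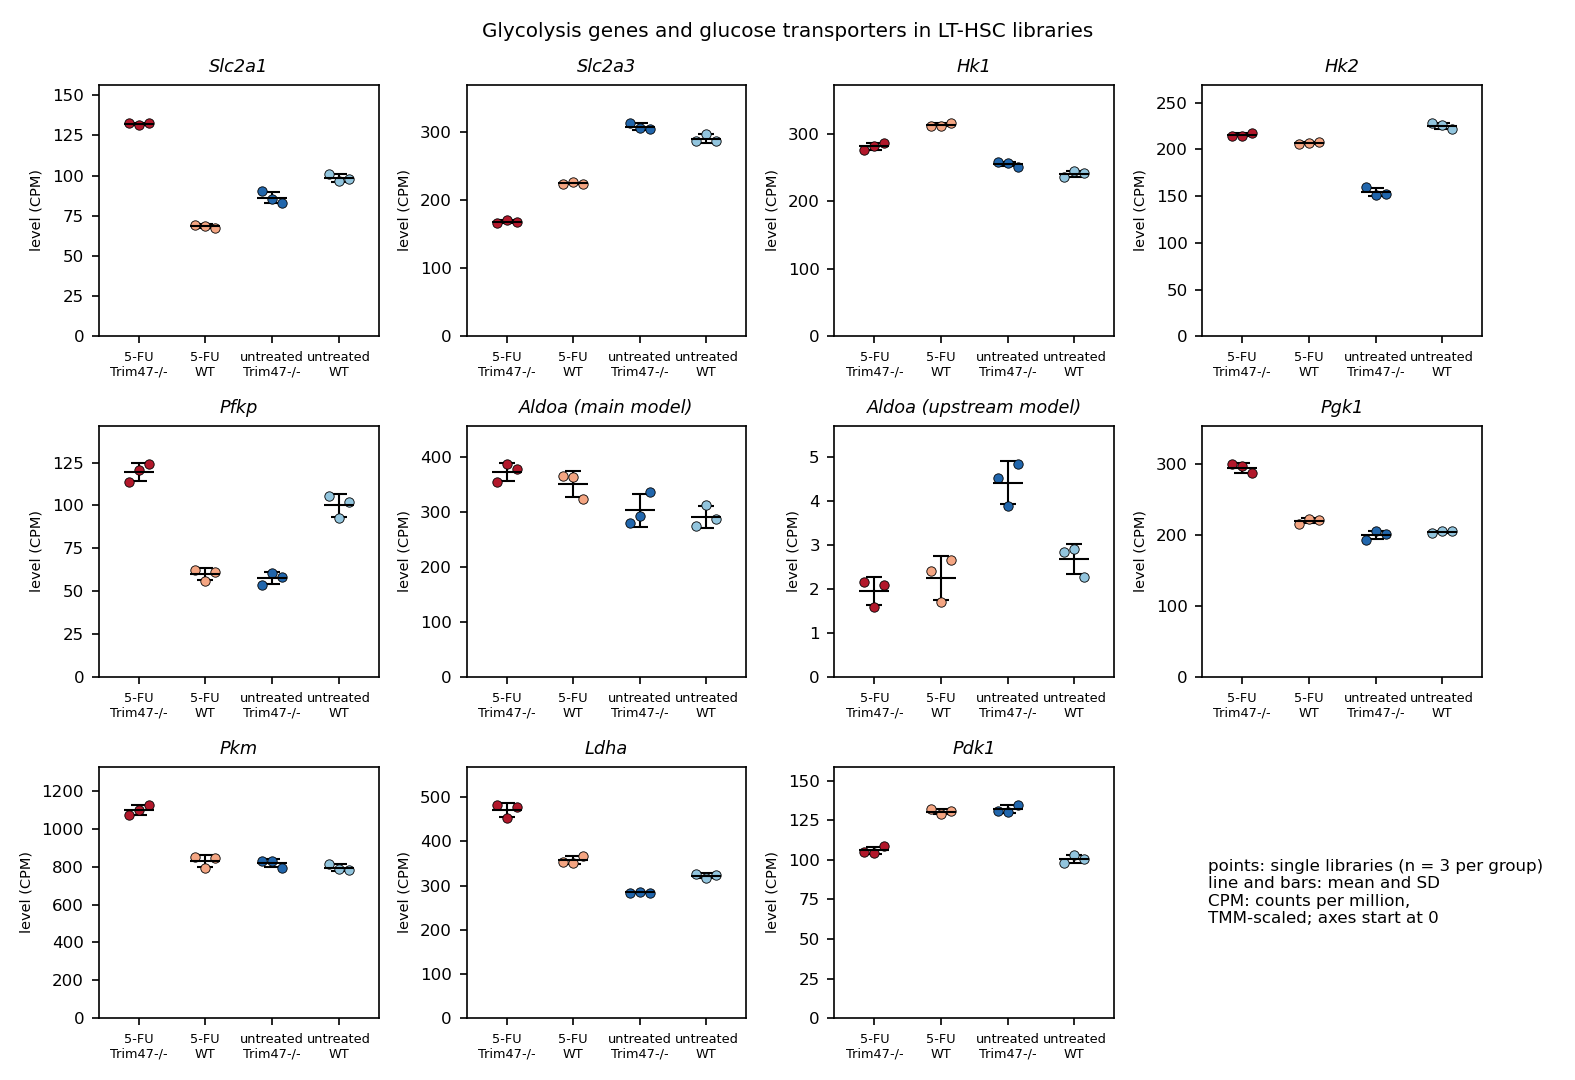
Level of each member in CPM (vertical axes, starting at 0) in the 12 libraries, by group along the horizontal axis; points are libraries, lines and bars the mean and SD of 3. Slc2a1 lies at 132 to 133 CPM in Trim47-/- libraries after 5-FU, above the other 9 libraries, and Pfkp at 114 to 124 CPM.

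Slc2a1 (chr4:119108711-119137983, plus strand, GRCm38 as for all positions), the widely expressed basal glucose transporter, had 133, 132 and 133 CPM in Trim47-/- libraries after 5-FU, against 69.5, 68.8 and 67.3 CPM in WT libraries after 5-FU. In untreated cells it had 90.3, 85.5 and 83.2 CPM in Trim47-/- libraries and 101, 96.5 and 98.1 CPM in WT libraries. The 4 groups did not overlap: after 5-FU the Trim47-/- group was the highest of the 4 and the WT group the lowest. The genotype difference was 0.95 ± 0.03 (log2, SE) after 5-FU, with an edgeR adjusted p of 1.59e-09. It was -0.19 ± 0.03 untreated, with an edgeR adjusted p of 0.00113. Slc2a1 thus changed with 5-FU in opposite directions, by 0.62 in Trim47-/- cells and by -0.52 in WT cells on the log2 scale, a difference in response of 1.14 ± 0.05 (edgeR adjusted p 4.92e-09).

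Slc2a3 (chr6:122727809-122801640, minus strand), the high-affinity transporter known from neurons and leukocytes, ran the other way. It had 167, 171 and 167.5 CPM in Trim47-/- libraries after 5-FU, against 224.5, 226 and 225 CPM in WT libraries after 5-FU. Untreated, the gene had 314, 306 and 305 CPM in Trim47-/- libraries and 287, 298 and 287 CPM in WT libraries. The groups did not overlap, and both genotypes were lower after 5-FU. The log2 change with 5-FU was -0.87 ± 0.02 in Trim47-/- cells and -0.37 ± 0.02 in WT cells, a difference of -0.50 ± 0.03 (edgeR adjusted p 1.27e-07). The genotype difference after 5-FU was -0.42 ± 0.02 (edgeR adjusted p 3.71e-08). The untreated one was 0.09 ± 0.02 (edgeR adjusted p 0.0114) and was not called by edgeR on the 6 untreated libraries alone or by DESeq2, with adjusted p of 0.0777 and 0.0919.

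The transporters were set side by side in FPKM, which divides by 1 fixed length per gene. How that length was set was not examined, so orders and ratios between genes in FPKM depend on it. Changes of a ratio between groups do not. The ratio of Slc2a3 to Slc2a1 in FPKM was 0.632, 0.654 and 0.635 in Trim47-/- libraries after 5-FU, against 1.63, 1.65 and 1.68 in WT libraries after 5-FU. In untreated cells it was 1.75, 1.803 and 1.84 in Trim47-/- libraries and 1.43, 1.55 and 1.47 in WT libraries. Slc2a1 outranked Slc2a3 in FPKM in the Trim47-/- libraries after 5-FU, at 23.9 ± 0.147 against 15.3 ± 0.194 FPKM, and in none of the other 3 groups. In CPM, Slc2a3 was above Slc2a1 in all 4 groups.

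Hk1 (chr10:62268855-62379908, minus strand), the constitutive hexokinase held at mitochondria, had 275.5, 282 and 286 CPM in Trim47-/- libraries after 5-FU, against 312, 312 and 316 CPM in WT libraries after 5-FU. Without the drug it had 257, 257 and 251 CPM in Trim47-/- libraries and 236, 245 and 241 CPM in WT libraries. It rose with 5-FU in both genotypes, by 0.14 ± 0.02 in Trim47-/- and 0.38 ± 0.02 in WT cells in log2, and the difference of -0.24 ± 0.03 passed (edgeR adjusted p 4.97e-05). Its genotype difference was -0.16 ± 0.02 after 5-FU (edgeR adjusted p 9.31e-05) and 0.08 ± 0.02 untreated (edgeR adjusted p 0.0126). The untreated call was lost on the 6 untreated libraries alone and with DESeq2, at adjusted p of 0.0776 and 0.106.

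Hk2 (chr6:82725025-82774454, minus strand), the inducible hexokinase, passed for genotype in untreated cells only; the difference between states is given by the response test. Untreated it had 159.5, 151 and 153 CPM in Trim47-/- libraries and 228, 226 and 222 CPM in WT libraries, a log2 change of -0.54 ± 0.02 (edgeR adjusted p 2.94e-08). After 5-FU it had 215, 214 and 218 CPM in Trim47-/- libraries, against 205, 207 and 208 CPM in WT libraries. That difference of 0.06 ± 0.02 did not pass (edgeR adjusted p 0.0528), although the libraries of the 2 groups did not overlap, and its sign turned to -0.02 when libraries were scaled by their totals alone. With 5-FU, Hk2 rose by 0.48 ± 0.02 in Trim47-/- cells and fell by 0.12 on the log2 scale in WT cells, a difference of 0.60 ± 0.03 (edgeR adjusted p 5.43e-08). The fall in WT was lost with scaling by totals, at a log2 change of -0.02 and an edgeR adjusted p of 0.484. In FPKM the ratio of Hk2 to Hk1 was 1.38 ± 0.02 in Trim47-/- and 1.19 ± 0.00639 in WT libraries after 5-FU, and 1.09 ± 0.03 in Trim47-/- and 1.69 ± 0.05 in WT libraries untreated. In CPM, which is not divided by length, Hk1 was above Hk2 in all 4 groups.

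Pfkp (chr13:6579768-6648777, minus strand), the platelet-type phosphofructokinase, had the largest genotype difference among the 10 symbols in both states. It had 114, 121 and 124 CPM in Trim47-/- libraries after 5-FU, against 62.4, 56.0 and 61.4 CPM in WT libraries after 5-FU. The untreated level was 53.9, 60.9 and 58.4 CPM in Trim47-/- libraries and 106, 92.8 and 102 CPM in WT libraries. The Trim47-/- libraries after 5-FU and the untreated WT libraries were high, and the other 6 libraries, at 53.9 to 62.4 CPM, were low and overlapped each other. The genotype difference in log2 was 0.997 ± 0.06 after 5-FU (edgeR adjusted p 1.64e-07) and -0.79 ± 0.06 untreated (edgeR adjusted p 3.14e-06). With 5-FU, Pfkp changed by 1.05 ± 0.06 in Trim47-/- cells and by -0.74 ± 0.06 in WT cells, and the difference of 1.79 ± 0.09 had an edgeR adjusted p of 2.24e-08. Pfkp overlaps Pitrm1 by 748 bases on the opposite strand. Pitrm1 ranged from 92.1 to 108 CPM in group means, and its difference in 5-FU response was 0.01 ± 0.06 (log2, not called). It was called higher in Trim47-/- than WT libraries after 5-FU, at 0.12 in log2 (edgeR adjusted p 0.0357). With 5-FU it was also called higher in Trim47-/- cells, at 0.12 (edgeR adjusted p 0.0412).

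**Figure D2:**
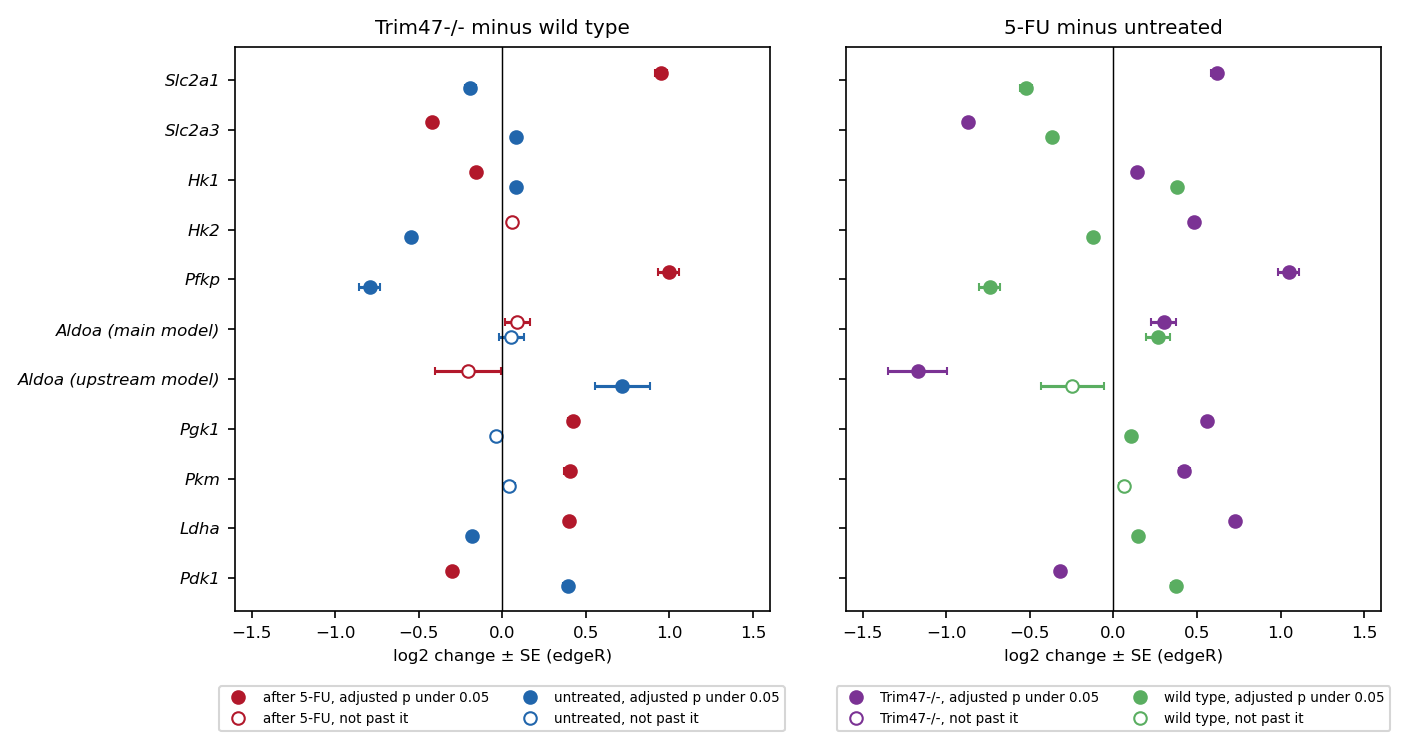
Log2 change (horizontal axes) of the 11 rows for genotype (left: after 5-FU in red, untreated in blue) and for 5-FU (right: Trim47-/- in purple, WT in green); bars are the SE and open circles mark changes that did not pass an adjusted p of 0.05. Slc2a1 and Pfkp lie near 1 after 5-FU and below 0 untreated on the left.

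In FPKM, Pfkp was below the other phosphofructokinase genes Pfkl and Pfkm in all 4 groups, an order that depends on the length used for each gene. In CPM, Pfkp was below Pfkl in all 4 groups. It was above Pfkm in CPM in Trim47-/- libraries after 5-FU and in untreated WT libraries, and below Pfkm in the other groups. The liver-type Pfkl had 21.4 ± 0.816 FPKM in Trim47-/- and 23.1 ± 0.856 FPKM in WT libraries after 5-FU, and 20.8 ± 0.201 FPKM in Trim47-/- and 19.2 ± 0.774 FPKM in WT libraries untreated, and passed in neither genotype comparison. The ratio of Pfkp to Pfkl in FPKM was 0.348 ± 0.0164 in Trim47-/- and 0.171 ± 0.00346 in WT libraries after 5-FU, and 0.173 ± 0.011 in Trim47-/- and 0.32 ± 0.0197 in WT libraries untreated. The muscle-type Pfkm moved against Pfkp. It averaged 63.9 ± 1.43 CPM in Trim47-/- and 97.8 ± 3.78 CPM in WT libraries after 5-FU, with a log2 change of -0.61 (edgeR adjusted p 1.40e-07). Untreated, it averaged 83.7 ± 2.7 CPM in Trim47-/- and 70.85 ± 1.63 CPM in WT libraries, with a log2 change of 0.24 (edgeR adjusted p 0.000568).

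**Figure D3:**
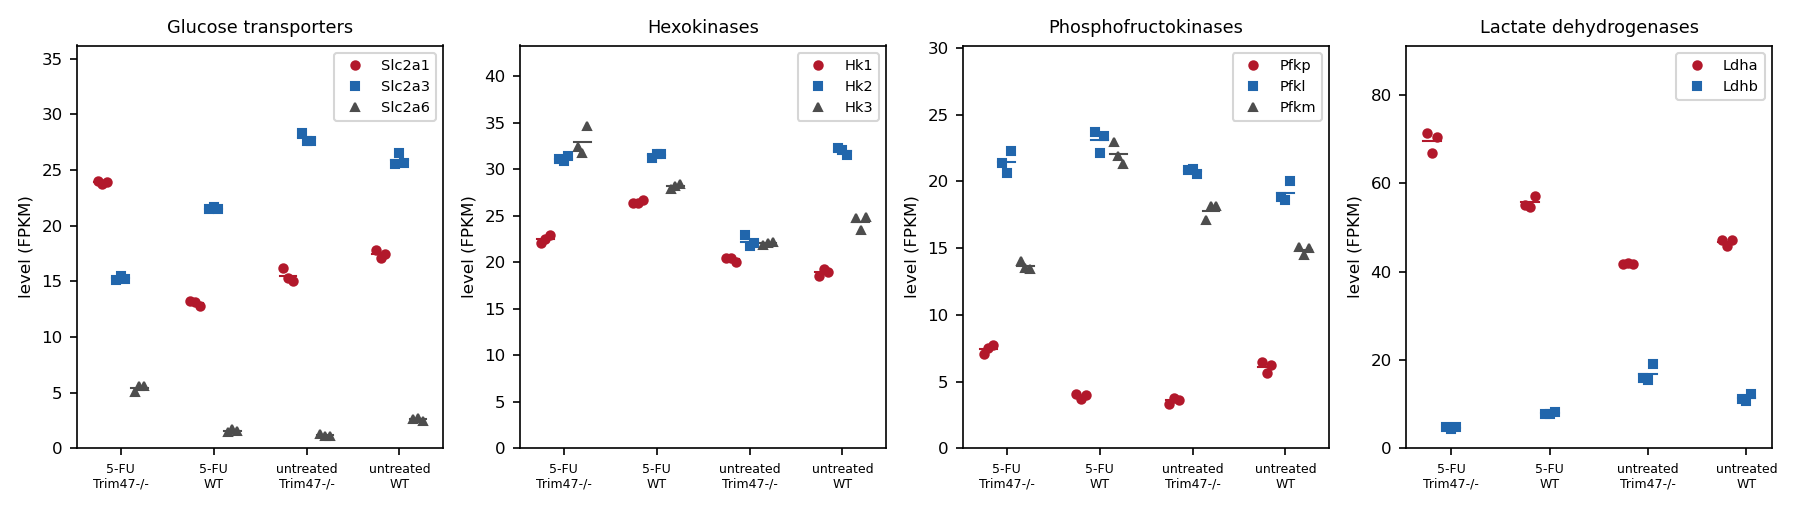
FPKM (vertical axes, from 0) of transporter, hexokinase, phosphofructokinase and lactate dehydrogenase isoforms in the 4 groups; points are libraries and short lines group means of 3. Slc2a1 lies above Slc2a3 in the Trim47-/- libraries after 5-FU, at 23.9 against 15.3 FPKM, and below it in the other 3 groups.

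Aldoa, the ubiquitous aldolase, had no genotype difference called in its main model. That model had 354, 387 and 377 CPM in Trim47-/- libraries after 5-FU, against 365, 362 and 322 CPM in WT libraries after 5-FU. At rest it had 279, 292.5 and 336 CPM in Trim47-/- libraries and 273, 313 and 287 CPM in WT libraries. The genotypes overlapped in both states, with log2 changes of 0.09 ± 0.07 after 5-FU and 0.06 ± 0.07 untreated (edgeR adjusted p 0.327 and 0.615). It rose with 5-FU by 0.30 ± 0.07 in Trim47-/- cells (edgeR adjusted p 0.00418) and by 0.27 ± 0.07 in WT cells (edgeR adjusted p 0.0107), and the difference of 0.04 ± 0.11 did not pass (edgeR adjusted p 0.803). Its spread between libraries, an SD of 29.8 CPM in untreated Trim47-/- cells, was wide for a gene of this level.

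The upstream Aldoa model, at chr7:126800790-126809108 just before the main one at chr7:126795234-126800751 on the same strand, rested on 22 to 99 counts per library. It had 2.17, 1.59 and 2.10 CPM in Trim47-/- libraries after 5-FU, against 2.40, 1.71 and 2.66 CPM in WT libraries after 5-FU. Untreated, it had 4.51, 3.88 and 4.84 CPM in Trim47-/- libraries and 2.835, 2.91 and 2.28 CPM in WT libraries. Its untreated genotype difference was 0.72 ± 0.17 (edgeR adjusted p 0.00621), and it fell by 1.17 on the log2 scale with 5-FU in Trim47-/- cells (edgeR adjusted p 0.000132). The sources used here do not say how reads were assigned between the neighbouring models.

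Pgk1 (chrX:106187100-106203699, plus strand), the first ATP-yielding enzyme of glycolysis, had 299.7, 297 and 286 CPM in Trim47-/- libraries after 5-FU, against 216, 222 and 221.5 CPM in WT libraries after 5-FU. Untreated libraries held 193, 205 and 201 CPM in Trim47-/- libraries and 203, 205 and 205 CPM in WT libraries, which overlapped. The genotype difference was 0.42 ± 0.03 after 5-FU (edgeR adjusted p 1.51e-07) and -0.04 ± 0.03 untreated (edgeR adjusted p 0.354). Pgk1 rose with 5-FU in both genotypes, by 0.56 ± 0.03 in Trim47-/- and 0.11 ± 0.03 in WT cells, a difference of 0.46 ± 0.04 (edgeR adjusted p 1.30e-06). Its counts are uncertain, because the retrocopy Pgk1-rs7 on chromosome 12 held counts equal to 79.4% of those of Pgk1. Pgk1-rs7 gave like changes, 0.40 ± 0.03 after 5-FU and 0.03 ± 0.03 untreated. With both summed, Pgk1 changed by 0.41 after 5-FU and by -0.005 untreated.

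Pkm (chr9:59656368-59679375, plus strand), pyruvate kinase, was the highest member per length in all 4 groups, with Pgk1-rs7 counts not added to Pgk1. It had 1070, 1099 and 1125 CPM in Trim47-/- libraries after 5-FU, against 850.1, 792.5 and 847 CPM in WT libraries after 5-FU. In untreated cells it had 831, 829.8 and 792 CPM in Trim47-/- libraries and 815, 785 and 781 CPM in WT libraries, which overlapped. The genotype difference was 0.40 ± 0.03 after 5-FU (edgeR adjusted p 8.72e-07) and 0.04 ± 0.03 untreated (edgeR adjusted p 0.335). It rose with 5-FU by 0.43 ± 0.03 in Trim47-/- cells. In WT cells the change was 0.06 ± 0.03 (edgeR adjusted p 0.115), which passed when libraries were scaled by totals (0.17) or WT replicate 2 after 5-FU was left out (0.10). The difference in response was 0.36 ± 0.04 (edgeR adjusted p 3.51e-05). The unclassified gene model Gm49759 lies inside Pkm on the same strand and averaged 109 ± 1.41 CPM in Trim47-/- and 49.3 ± 1.44 CPM in WT libraries after 5-FU. Adding its reads to Pkm gave a genotype change of 0.46 after 5-FU. Gene counts do not separate the Pkm splice forms.

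Ldha (chr7:46841475-46855627, plus strand), the lactate dehydrogenase subunit that favours lactate, had 483, 454 and 478 CPM in Trim47-/- libraries after 5-FU, against 354, 351 and 368 CPM in WT libraries after 5-FU. In untreated cells it had 284, 286 and 283 CPM in Trim47-/- libraries and 326, 316 and 325 CPM in WT libraries. The groups were separate in both states, higher in Trim47-/- after 5-FU and lower in Trim47-/- untreated. The genotype difference was 0.40 ± 0.03 after 5-FU (edgeR adjusted p 2.24e-07) and -0.18 ± 0.03 untreated (edgeR adjusted p 0.000343). Ldha rose with 5-FU by 0.73 ± 0.03 in Trim47-/- and 0.15 ± 0.03 in WT cells, a difference of 0.58 ± 0.04 (edgeR adjusted p 1.78e-07). Counts at the pseudogene Ldha-ps2 equalled 1.63% of those of Ldha.

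Ldhb, the subunit that favours pyruvate, went against Ldha. It averaged 11.4 ± 0.753 CPM in Trim47-/- and 18.25 ± 0.851 CPM in WT libraries after 5-FU, and 41.1 ± 4.82 CPM in Trim47-/- and 28.2 ± 2.06 CPM in WT libraries untreated. In FPKM the ratio of Ldhb to Ldha was 0.0674 ± 0.00244 in Trim47-/- and 0.142 ± 0.00315 in WT libraries after 5-FU, and 0.402 ± 0.049 in Trim47-/- and 0.243 ± 0.0152 in WT libraries untreated. Ldhb fell with 5-FU by 1.84 on the log2 scale in Trim47-/- cells and by 0.63 in WT cells, a difference of -1.22 ± 0.13 (edgeR adjusted p 1.04e-05).

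Pdk1 (chr2:71873224-71903858, plus strand), the kinase that holds pyruvate dehydrogenase inactive, had 105, 104 and 109 CPM in Trim47-/- libraries after 5-FU, against 132, 129 and 131 CPM in WT libraries after 5-FU. In untreated cells it had 131, 130.4 and 135 CPM in Trim47-/- libraries and 98.1, 103 and 100.4 CPM in WT libraries. The genotype difference was -0.30 ± 0.03 after 5-FU (edgeR adjusted p 4.50e-06) and 0.39 ± 0.03 untreated (edgeR adjusted p 1.57e-06). Pdk1 fell with 5-FU by 0.32 on the log2 scale in Trim47-/- cells and rose by 0.37 ± 0.03 in WT cells, and the difference was -0.69 ± 0.04 (edgeR adjusted p 8.10e-08). It was thus opposite in sign to Slc2a1, Pfkp and Ldha in both genotype comparisons. Its relative Pdk2 had the same signs, at -0.88 ± 0.07 after 5-FU and 0.51 ± 0.07 untreated (edgeR adjusted p 8.18e-07 and 0.000155).

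With 5-FU, 8 member rows rose and 3 fell in Trim47-/- cells, where 29.6% of all genes rose and 30.8% fell, and the members' median log2 change was 0.425 beside -0.005 for all genes. In WT cells 5 rose, 4 fell and 2 were not called, where 25.2% of all genes rose and 25.4% fell, with medians of 0.06 and 0.01. The risers in Trim47-/- cells were Slc2a1, Hk1, Hk2, Pfkp, main Aldoa, Pgk1, Pkm and Ldha. Those in WT cells were Hk1, main Aldoa, Pgk1, Ldha and Pdk1. The members' summed level was 3217, 3263 and 3305 CPM in Trim47-/- libraries after 5-FU, against 2794, 2729 and 2769 CPM in WT libraries after 5-FU. Untreated, it was 2598, 2609 and 2602 CPM in Trim47-/- libraries and 2677, 2684 and 2650 CPM in WT libraries, and Pkm made up the largest part of it.

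Per length, Pkm and then Pgk1 led in all 4 groups, at 147.5 ± 3.57 and 95.6 ± 2.35 FPKM in Trim47-/- libraries after 5-FU. Ldha came next there, above main Aldoa, at 69.6 ± 2.38 against 63.2 ± 2.73 FPKM. In the other 3 groups main Aldoa came next on average, then Ldha, but the 2 overlapped in untreated WT libraries. All other neighbours in the order were separated in all 3 libraries. The lowest ranks were held by Pdk1, Pfkp and the upstream Aldoa model. This order is that of FPKM and depends on the length used for each gene. In CPM, Pkm also led in all 4 groups, but Pgk1 lay below Ldha and main Aldoa. Both orders leave out the retrocopy Pgk1-rs7, whose counts equalled 79.4% of those of Pgk1. In Trim47-/- libraries after 5-FU, for example, Pgk1-rs7 averaged 236 CPM beside 294 CPM for Pgk1. The rank of Pgk1 against Pkm, Ldha and main Aldoa is therefore uncertain.

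Of 15 other glycolytic enzymes that passed the filter, out of 19 listed, 5 were higher and 5 lower in Trim47-/- than WT cells after 5-FU, and 4 were higher and 4 lower untreated. Their medians were -0.03 and 0.10 in log2. Of all tested genes, 27.2% were higher and 27.6% lower after 5-FU, and 17.6% were higher and 15.4% lower untreated. These shares also stand beside the genotype counts of the other gene and marker lists below. Pgam1, the mutase that follows Pgk1, averaged 299 ± 3.46 CPM in Trim47-/- and 183 ± 1.13 CPM in WT libraries after 5-FU. Untreated, it averaged 143 ± 4.45 CPM in Trim47-/- and 177 ± 18.4 CPM in WT libraries. Its difference in 5-FU response was 1.02 ± 0.08 (edgeR adjusted p 9.30e-07). The enolase Eno1 averaged 180.4 ± 4.95 CPM in Trim47-/- and 128 ± 6.59 CPM in WT libraries after 5-FU, a log2 change of 0.50 (edgeR adjusted p 5.99e-07). Aldoc, another aldolase, had log2 changes of -0.82 after 5-FU and 0.45 untreated (edgeR adjusted p 9.26e-06 and 0.00188), opposite in sign in the 2 states.

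Among 10 other sugar, lactate and pyruvate transporters tested, 2 were higher and 2 lower after 5-FU, and 1 was higher and 2 lower untreated, in Trim47-/- than in WT cells. Slc2a6, a transporter of the Slc2a family found on lysosomes, averaged 27.2 ± 1.74 CPM in Trim47-/- and 7.61 ± 0.495 CPM in WT libraries after 5-FU. Untreated, it averaged 5.90 ± 0.498 CPM in Trim47-/- and 13.45 ± 0.841 CPM in WT libraries. Its changes were 1.84 ± 0.09 and -1.19 ± 0.09 in log2 (edgeR adjusted p 1.37e-08 and 1.77e-06), and its difference in 5-FU response was 3.03 ± 0.12. Slc16a1, which carries lactate across the membrane, averaged 138 ± 2.51 CPM in Trim47-/- and 89.1 ± 4.61 CPM in WT libraries after 5-FU, a log2 change of 0.63 (edgeR adjusted p 1.53e-07).

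Of 5 genes listed for the control of phosphofructokinase, none was higher after 5-FU in Trim47-/- than WT cells. In that comparison 2 were lower, Pfkfb4 and Pfkfb2, at -0.38 and -0.32 in log2 (edgeR adjusted p 0.00641 and 0.0132). Untreated, Pfkfb4 was higher, at 0.28 (edgeR adjusted p 0.0416), and none was lower. The list's median was 0.07 after 5-FU and -0.05 untreated, opposite in sign to those calls. Of 10 genes of pyruvate dehydrogenase and its control, 4 were higher and 2 lower after 5-FU, and 2 were higher and 1 lower untreated. Subunit genes Dld, Pdhb and Pdha1 were among the higher ones after 5-FU, at 0.26, 0.29 and 0.15 in log2.

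The pentose phosphate pathway, which branches off after hexokinase, had 6 of 8 genes higher and 1 lower in Trim47-/- than WT cells after 5-FU, with a median log2 change of 0.30. Tkt, Pgd and G6pdx rose by 0.31, 0.33 and 0.35 (edgeR adjusted p 2.78e-06, 9.16e-06 and 1.87e-05), and H6pd fell by 0.47 on the log2 scale (edgeR adjusted p 2.15e-05). Untreated, H6pd alone passed, and it was higher at 0.35 (edgeR adjusted p 0.00056). The citric acid cycle had 11 of 16 genes higher and 0 lower after 5-FU, with a median of 0.23. Idh3a, Dlst, Sdhd and Mdh2 led them, at 0.44, 0.54, 0.31 and 0.35 in log2. Untreated, 2 of the 16 were higher and 4 lower. The shares of all tested genes were 27.2% higher and 27.6% lower after 5-FU, and 17.6% higher and 15.4% lower untreated.

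**Figure D4:**
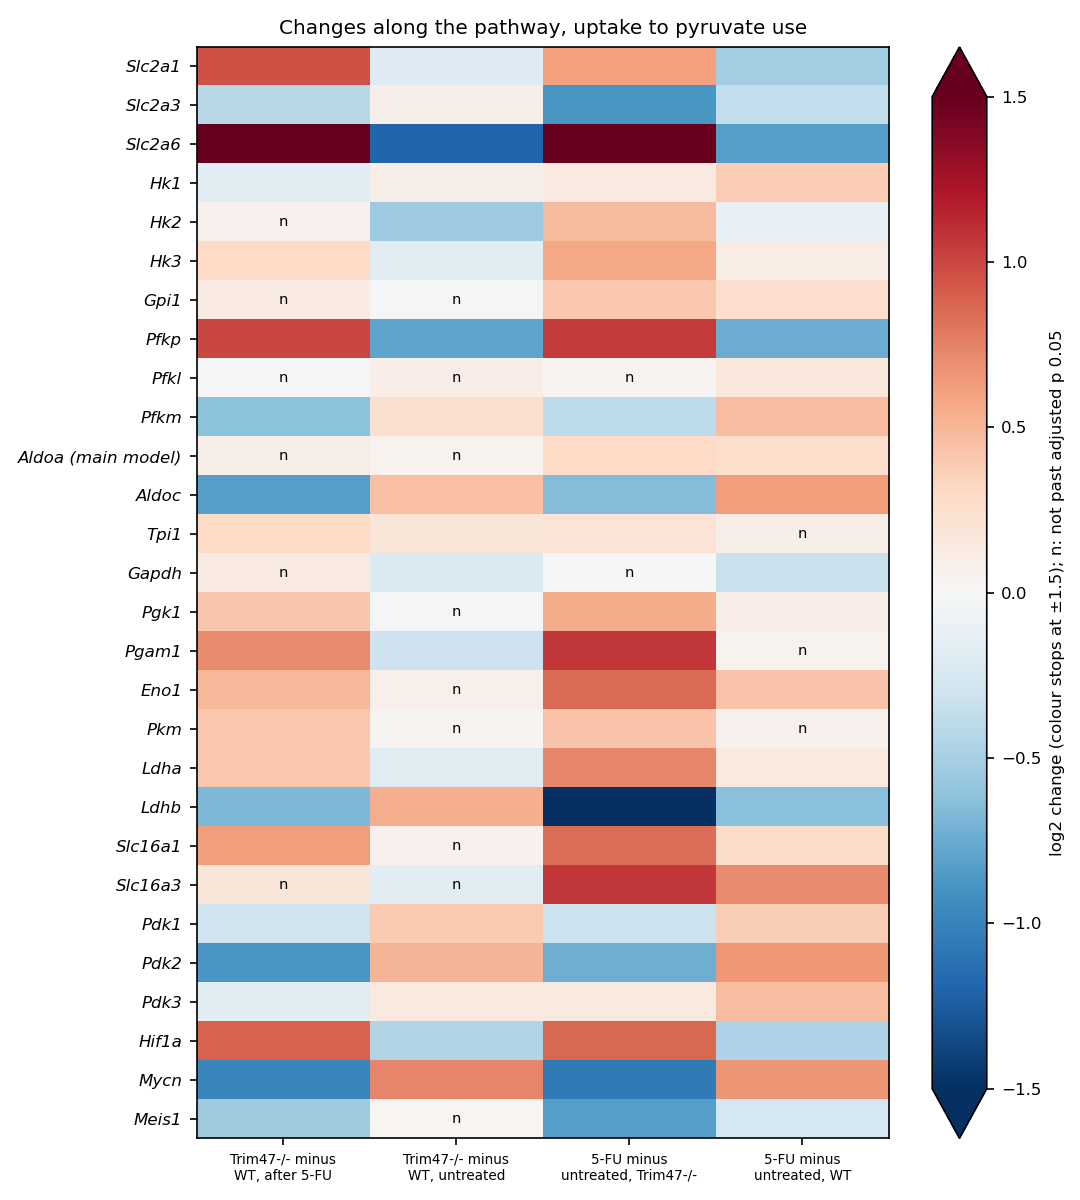
Log2 change (colour, red higher and blue lower, stopping at ±1.5) of members and of other listed genes, in rows from glucose uptake to pyruvate use and then regulators, in 4 comparisons (columns); n marks changes not past an adjusted p of 0.05. Rows red after 5-FU and blue untreated in the genotype columns include Slc2a1, Slc2a6, Pfkp, Pgam1, Ldha and Hif1a. Rows with the reverse include Slc2a3, Hk1, Pfkm, Aldoc, Ldhb, Pdk1, Pdk2 and Mycn.

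Of 16 regulators of glycolysis, 7 were higher and 6 lower after 5-FU, and 5 were higher and 4 lower untreated, in Trim47-/- than in WT cells. Hif1a, the oxygen-labile subunit of HIF, averaged 144 ± 5.06 CPM in Trim47-/- and 78.4 ± 1.33 CPM in WT libraries after 5-FU. Untreated, it averaged 79.2 ± 5.62 CPM in Trim47-/- and 108 ± 4.35 CPM in WT libraries. The changes were 0.88 and -0.45 in log2 (edgeR adjusted p 6.74e-08 and 4.62e-05), the signs of Slc2a1 and Pfkp. HIF is controlled mainly at the protein level, which was not measured. Hif1an, the hydroxylase that restrains HIF, was higher after 5-FU at 0.62 (edgeR adjusted p 1.21e-07). Mycn, a Myc-family factor, had the reverse signs, -0.98 after 5-FU and 0.74 untreated (edgeR adjusted p 3.54e-08 and 9.75e-07). Meis1, a homeobox factor that in mouse stem cells drives Hif1a, was lower after 5-FU, at -0.53 (edgeR adjusted p 3.10e-07).

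HIF targets outside glycolysis did not share one direction: of 14 tested, 3 were higher and 4 lower after 5-FU, and 3 were higher and 3 lower untreated, with medians of -0.04 and 0.08. Among all tested genes, 27.2% were higher and 27.6% lower after 5-FU, and 17.6% were higher and 15.4% lower untreated. Vegfa, a growth factor and HIF target, averaged 167 ± 8.05 CPM in Trim47-/- and 137 ± 5.48 CPM in WT libraries after 5-FU, and 316.5 ± 2.78 CPM in Trim47-/- and 455.5 ± 8.86 CPM in WT libraries untreated. Ero1l was higher after 5-FU at 0.41, and Ndrg1 and Car9 were lower, at -0.28 and -0.53 in log2 (edgeR adjusted p 6.88e-05, 6.64e-06 and 0.00394).

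Genes most like each of the 3 rows with the largest difference in response were taken by Pearson r of log2 CPM over the 12 libraries among 9297 genes. For Pfkp, Tbl3 and Gna13 led, with r of 0.991 and 0.987. For Slc2a1 they were Ifitm3, Vps37b and Mybbp1a, with r of 0.996, 0.995 and 0.992, and for the upstream Aldoa model Tesk1, Rbm14 and Fastkd1, with r of 0.952, 0.939 and 0.928. The 12 points share 4 group means, so r mainly describes the order of the groups. Ifitm3, for example, averaged 237.5 CPM in Trim47-/- and 147 CPM in WT libraries after 5-FU, and 175 CPM in Trim47-/- and 192.5 CPM in WT libraries untreated.

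Marker genes of cell types moved beside these results. The 12 LT-HSC markers were all detected, although Slamf1, used to sort LT-HSCs, averaged 5.67 CPM in Trim47-/- and 16.3 CPM in WT libraries after 5-FU, and 2.86 CPM in Trim47-/- and 1.89 CPM in WT libraries untreated. Their sum was 694.6 to 769 CPM in Trim47-/- and 1123 to 1285 CPM in WT libraries after 5-FU, with 11 of 12 lower and 0 higher. Untreated, the sum was 1239 to 1354 CPM in Trim47-/- and 1120 to 1218 CPM in WT libraries, with 4 higher and 0 lower. The 12 neutrophil markers, several of them also made by progenitors, summed to 6496 to 6879 CPM in Trim47-/- and 4064 to 4134 CPM in WT libraries after 5-FU, with 11 higher and 0 lower. Untreated, they summed to 3238 to 3292 CPM in Trim47-/- and 3310 to 3447 CPM in WT libraries, with 6 higher and 3 lower. Mpo was the largest part of this sum, averaging 3285 CPM in Trim47-/- and 1831 CPM in WT libraries after 5-FU. Its untreated means were 1731 CPM in Trim47-/- and 1899 CPM in WT libraries. The 10 monocyte markers summed to 1041 to 1070 CPM in Trim47-/- and 603.5 to 616 CPM in WT libraries after 5-FU, with 9 higher and 0 lower, and to 475 to 504 CPM in Trim47-/- and 649.9 to 657 CPM in WT libraries untreated, with 0 higher and 5 lower.

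**Figure D5:**
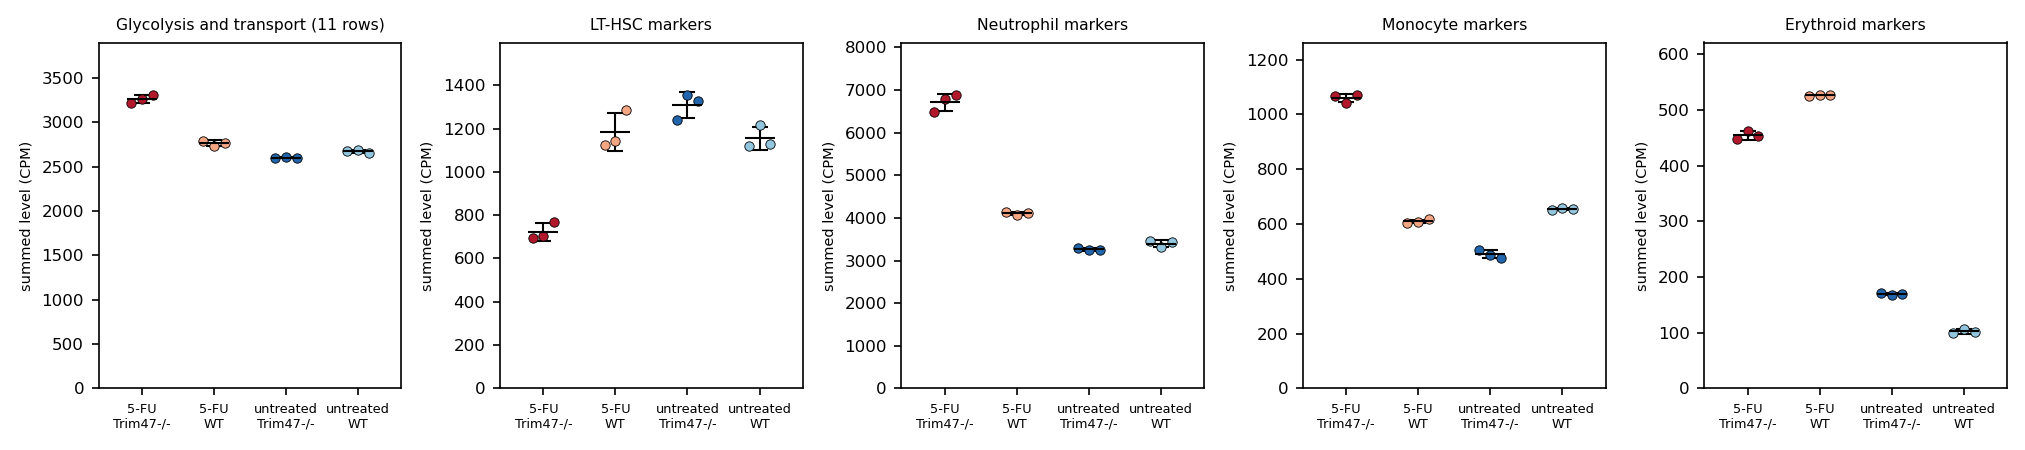
Summed CPM (vertical axes, from 0) of the member rows and of 4 marker lists in the 12 libraries by group; points are libraries, lines and bars the mean and SD of 3. Members, neutrophil and monocyte markers are highest, and LT-HSC markers lowest, in Trim47-/- libraries after 5-FU.

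The monocyte sum was thus highest in Trim47-/- libraries after 5-FU, as Slc2a1, Pfkp, Pgk1, Pkm and Ldha were, and main Aldoa on average. The sum was lowest in untreated Trim47-/- libraries, while Slc2a1 was lowest in WT libraries after 5-FU. In untreated libraries the monocyte sum was lower in Trim47-/- than in WT, as Slc2a1, Hk2, Pfkp and Ldha were. Slc2a3, Hk1 and Pdk1 had the reverse signs in both genotype comparisons. Hk2 was not called after 5-FU, and Pgk1, Pkm and main Aldoa were not called untreated. The erythroid markers summed to 447.5 to 462 CPM in Trim47-/- and 525.7 to 526 CPM in WT libraries after 5-FU, with 5 of 10 lower, and to 167 to 171 CPM in Trim47-/- and 99.03 to 107 CPM in WT libraries untreated, with 7 higher. Megakaryocyte markers were lower in Trim47-/- for 7 of 9 tested after 5-FU and 6 of 9 untreated, B-cell markers for 5 of 9 and 2 of 9, and T- and NK-cell markers for 1 of 5 and 0 of 5. The B-cell sum was 207.6 CPM in untreated Trim47-/- replicate 3, against 389 and 393 CPM in replicates 1 and 2, and leaving out that library ended no member call. No marker was at 0 in all 12 libraries, but Cd3d, Cd3e, Cd3g, Cd8a and Ncr1, Ms4a1, Gp6 and Tubb1 stayed under 1 CPM. The part of these markers in the results for glycolysis genes was not tested.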

How the data were processed

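RNA-seq of 12 libraries of mouse LT-HSCs was analysed. Libraries were stranded, paired-end and poly-A selected, per the labels' protocols. Tools in the submitters' processing notes, with no role, are HISAT2, StringTie, edgeR and CASAVA 1.8, and the build is GRCm38. The sources used here do not give the counting tool, its strand setting or the annotation. The deposited table holds raw counts and, per the file headers, FPKM values, which matched the deposited counts divided by library total and 1 fixed length per gene in 11212 genes checked. The test on counts was that of edgeR 4.0.16, run in R 4.3.3 (TMM scaling, default filter on low counts, quasi-likelihood test) with all 12 libraries in 1 fit and 1 mean per group, and p-values were Benjamini-Hochberg adjusted over 16319 genes. A gene was called at an adjusted p under 0.05. CPM are TMM-scaled; log2 changes come from the fit, with their standard error. FPKM served only to compare genes and was not tested. Positions and overlaps come from GENCODE M21, promoters from RefSeq.

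Named were the 10 members and, per list and comparison, up to 4 genes with the smallest p among those that passed with a mean of at least 5 CPM; Pfkl and Ldhb values in ratios, marker genes, Pitrm1, Pgk1-rs7 and Gm49759 were added after their values were seen. Members and lists were chosen with earlier results of these data known. Libraries of a group differed by more than counting noise: at p 0.01, 8.49% to 9.94% of genes differed within a pair, with a mean chi-square of 5.81 to 8.73 per degree of freedom and a median of 0.687 to 0.758. Of 44 member rows by group, 15 were beyond counting noise at p 0.05. Same-numbered libraries did not deviate together, so numbers were not used as pairs. Alternatives were DESeq2 1.42.0 and its size factors, library totals, no filter, a replicate block, the 2 groups alone, a 1.5-fold test, a threshold of 0.01, each library left out, and copies summed into their parent, the last added after seeing the data. The procedure was tested on simulated data. One gene that the rule for likeness names is not reported here.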

Additional observations from a re-analysis of the deposited data

Results flagged for a closer look

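For 10 of the 11 rows the 5-FU response differed between genotypes by the interaction test. The response in Trim47-/- minus that in WT, in log2, was 1.14 for Slc2a1, -0.50 for Slc2a3, -0.24 for Hk1, 0.60 for Hk2, 1.79 for Pfkp, -0.93 for the upstream Aldoa model, 0.46 for Pgk1, 0.36 for Pkm, 0.58 for Ldha and -0.69 for Pdk1. The edgeR adjusted p ran from 4.92e-09 for Slc2a1 to 0.0101 for the upstream Aldoa model. Among all genes, 26.4% were called higher and 28.5% lower in the same test.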

How the results depend on the processing

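Over all alternatives, 792 of 845 recomputed member changes kept their direction and their side of the threshold, 44 lost the call, 2 gained it and 7 reversed. Tested against a 1.5-fold change, members called fell to 1 for genotype untreated, 2 for genotype after 5-FU, 1 for 5-FU in WT, 4 for 5-FU in Trim47-/- and 3 for the difference in response. The untreated call was Pfkp, and those after 5-FU were Slc2a1 and Pfkp. Counts over all genes were then 450, 1415, 1602, 2422 and 2913, against 5392, 8933, 8260, 9868 and 8957, and at an adjusted p under 0.01 the untreated count was 3391. Leaving out 1 library gave 8 members called untreated, 8 after 5-FU, 9 to 10 for 5-FU in WT, 11 for 5-FU in Trim47-/- and 10 for the difference. Of all genes, 4551 to 4652 were then called untreated and 8222 to 8270 after 5-FU. For 5-FU the range was 7522 to 7614 in WT and 9177 to 9271 in Trim47-/-, and for the difference 8556 to 8684. The main Aldoa model, never called for genotype, ran from -0.024 to 0.116 untreated and from -0.024 to 0.116 in the difference when 1 library was left out, and reversed to -0.062 in the difference with library totals and to -0.008 with no filter. Hk2 after 5-FU reversed to -0.018 with library totals, which moved the median of all genes by -0.0771 in that comparison and by 0.1025 for 5-FU in WT. The replicate block changed no call in 55 of 55, and 10 members were called in the difference with it. With that block, 4267 of all genes were higher and 4560 lower in the difference. The core ACGTG or GCGTG in the 150 bases nearest the start was held by 53.3% of member promoters and 29.3% of all promoters. The cause was not tested. Depth limits the upstream Aldoa model, with 22 counts at the lowest; other members had at least 885.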
